A study of Homo sapiens with 2 samples.

Results

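Prostaglandin and leukotriene pathway genes were described in a pair of arrays: ALOX5AP, ALOX5, LTA4H, LTC4S, PLA2G4A, PTGS1, PTGS2, PTGES, HPGD and PTGR1. These 10 genes were a set list of the pathway, chosen with their values on the same arrays already known, so their differences are given as a description and no test was made. By the rule that a gene is read only from probe sets annotated to exactly 1 gene symbol, 9 of the 10 were measured, among 18377 genes in all. LTC4S was the exception. Both probe sets that name it also name MAML1, and they read 8.13 and 7.45 in EBC1 and 8.05 and 7.30 in EBC1-R on the log2 scale, so no level of LTC4S itself is given.

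EBC1 is an established human lung squamous carcinoma line with amplified MET, a receptor tyrosine kinase. EBC1-R is a subline of cells that outlived a stepwise increase of PHA-665752, which inhibits MET, and was then grown with 3 µM of it, whereas no inhibitor is named in the label of the parental line. Total RNA of each line was hybridised to 1 whole-transcript array. With 1 array per line there is no replicate error, resistance cannot be told apart from continued exposure to the drug, and EBC1-R is a single selected population. Bulk RNA also cannot tell fewer expressing cells from less RNA per cell.

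Prostaglandins and leukotrienes are signalling lipids made from arachidonic acid. A cytosolic phospholipase frees arachidonic acid from membrane lipids, after which cyclooxygenases lead to prostaglandins and 5-lipoxygenase leads to leukotrienes. Leukotriene synthesis is best known from leukocytes, where 5-lipoxygenase works with a membrane partner, FLAP, that presents the substrate to it. Prostaglandin E2 made through the inducible cyclooxygenase PTGS2 is a familiar product of inflamed and malignant epithelium, and is inactivated by oxidation followed by reduction.

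Levels below are log2 intensities as deposited, and differences are EBC1-R minus EBC1 on that scale. Over all genes the median difference was -0.03 and the central 95% of differences lay between -0.65 and 0.75. The differences of probe sets of the same gene had a pooled SD of 0.16. It was taken over 374 genes that reached 7.41 on either array, a level explained below. It measures agreement within these arrays only and says nothing of culture-to-culture variation. A gene was counted at 2-fold, or 1 log2 unit. In all, 1.26% of genes were at least 2-fold higher in EBC1-R and 0.887% at least 2-fold lower. Among the 9 measured members 2 were at least 2-fold higher and none was at least 2-fold lower. Nothing is read from the share of members, since the list was drawn up from this contrast. Only 4 members (ALOX5AP, ALOX5, LTA4H and PTGR1) reached a level of 7.41 on either array, the median of the genes' higher values. ALOX5AP and ALOX5 reached it through EBC1-R alone. No detection calls were used, so whether the lower values exceed background is not known.

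The promoters of 3 members are shown: ALOX5AP had the largest difference, PTGR1 the third largest, and PTGS2, a gene known for induction, was nearly equal on both arrays. ALOX5, with the second largest difference, is not shown. Each is the 250 bases before the start listed by RefSeq (GRCh38.p14), written 5′ to 3′ on the gene's strand, with matches to the motifs named below in capitals. ALOX5AP lies at chr13:30713235-30713484 on the plus strand, PTGR1 at chr9:111599432-111599681 on the minus strand and PTGS2 at chr1:186680424-186680673 on the minus strand.
ALOX5AP: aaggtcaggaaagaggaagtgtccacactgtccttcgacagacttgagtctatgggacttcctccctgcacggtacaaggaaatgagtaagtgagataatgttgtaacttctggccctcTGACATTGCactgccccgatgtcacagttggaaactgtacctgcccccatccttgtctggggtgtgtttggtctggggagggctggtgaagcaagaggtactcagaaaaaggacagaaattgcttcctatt
PTGR1: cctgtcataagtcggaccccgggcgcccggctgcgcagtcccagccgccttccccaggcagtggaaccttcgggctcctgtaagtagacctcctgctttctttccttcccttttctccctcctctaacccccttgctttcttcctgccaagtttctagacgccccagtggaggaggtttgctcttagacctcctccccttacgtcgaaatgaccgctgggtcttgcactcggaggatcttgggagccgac
PTGS2: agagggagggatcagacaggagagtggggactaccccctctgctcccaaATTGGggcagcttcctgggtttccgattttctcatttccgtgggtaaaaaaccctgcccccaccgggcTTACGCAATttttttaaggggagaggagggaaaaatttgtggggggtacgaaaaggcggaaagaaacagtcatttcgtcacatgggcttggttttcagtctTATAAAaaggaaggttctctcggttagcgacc
The motifs were searched on both strands in the same 250 bases of 35116 RefSeq promoters: TATAAA (10.7% of promoters), CCAAT (32%), the GC box GGGCGG (42.6%), the AP-1 site TGANTCA (6.57%), the antioxidant response element core TGACNNNGC (10.9%), the hypoxia response core ACGTG (18.5%), the C/EBP site TTNNGCAAT (2.04%) and the NF-kB consensus (9.96%). In ALOX5AP the capitals mark 1 match to the antioxidant response element core, from -131 to -123 relative to the start. PTGS1, whose promoter is not printed, also holds a match to that core, from -157 to -149. It had the most negative difference among the members, at -0.44. In PTGS2 they mark a TATA box from -32 to -27, a C/EBP match from -133 to -125 and a CCAAT match on the opposite strand from -201 to -197. PTGR1 holds none of these strings. The PTGR1 window has 13 CpG dinucleotides and the ALOX5AP window 3. A match is a string of letters and not a shown binding site.

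The leukotriene branch held both members that passed 2-fold. ALOX5AP, which encodes FLAP, read 6.08 in EBC1 and 8.04 in EBC1-R, or 67.6 and 264 on the linear scale. It was 3.90-fold higher in EBC1-R, the 35th highest difference of the 18377 genes. Its value stood at the 36.9th percentile of probe sets in EBC1 and at the 69.6th in EBC1-R. ALOX5, the 5-lipoxygenase that FLAP serves, read 6.42 in EBC1 and 7.46 in EBC1-R, 2.06-fold higher and the 207th highest difference. With a pseudocount of 16 added on the linear scale the ALOX5 difference was 0.92, under 2-fold. Their mean levels lie between 5.98 and 7.28, and 1.35% of the genes in that range were at least 2-fold higher.

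LTA4H, the hydrolase that turns leukotriene A4 into leukotriene B4, was bright on both arrays. It read 10.67 in EBC1 and 11.06 in EBC1-R, 1.31-fold higher, and 16.4% of all genes differed by at least as much in either direction. All 3 measured leukotriene genes stood higher in EBC1-R, by very different amounts, where 43.3% of all genes were higher. Nothing is read from that count, since the list was drawn up from this contrast. The enzyme of the cysteinyl branch, LTC4S, could not be read.

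**Figure D1:**
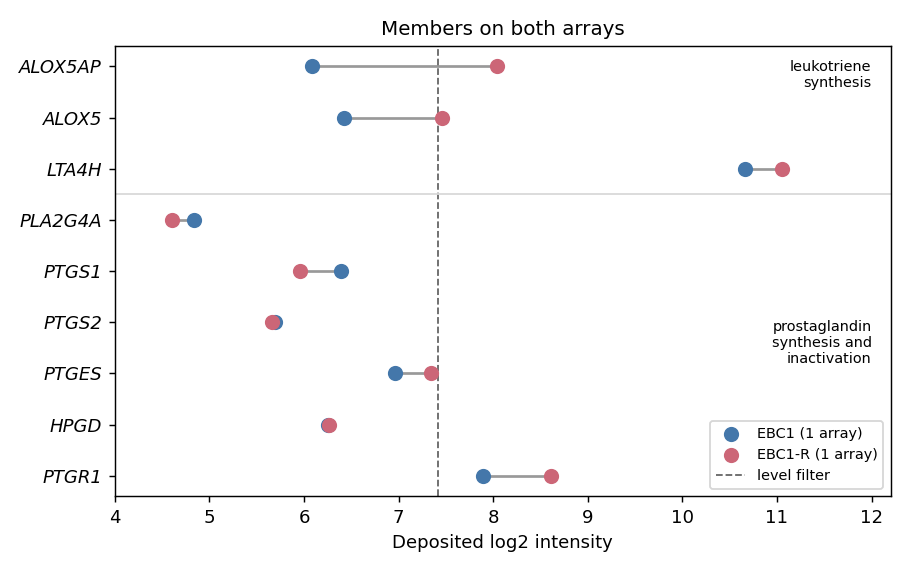
Deposited log2 intensity (x axis) of the 9 measured members on the EBC1 array (blue) and the EBC1-R array (red), 1 array each, with the level filter at 7.41 as a dashed line. ALOX5AP spans from 6.08 to 8.04, while the points of PTGS2 and HPGD nearly coincide.

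The genes that start prostaglandin synthesis were low on both arrays, and none was higher in EBC1-R as deposited. PLA2G4A, the cytosolic phospholipase A2 that frees arachidonic acid, read 4.84 in EBC1 and 4.61 in EBC1-R, at percentiles 11.3 and 6.83 of the probe sets. PTGS1, the constitutive cyclooxygenase, read 6.40 in EBC1 and 5.96 in EBC1-R, 1.35-fold lower in EBC1-R and the most negative difference among the members. PTGS2, the inducible cyclooxygenase, read 5.69 in EBC1 and 5.66 in EBC1-R, which differ by -0.04. That is under the 0.16 between probe sets of a gene, though the 0.16 comes from genes that reached the level filter, which PTGS2 did not. Of all genes 87.4% differed by more or as much.

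PTGES, the inducible glutathione-dependent enzyme that completes prostaglandin E2, was slightly higher in EBC1-R. It read 6.96 in EBC1 and 7.34 in EBC1-R, a 1.31-fold step, and stayed just under the level filter. The inactivating enzymes differed from each other too. HPGD, the dehydrogenase that takes the first step of prostaglandin inactivation, read 6.25 in EBC1 and 6.26 in EBC1-R and was 0.01 higher. PTGR1, a reductase that acts on the oxidised prostaglandins and also inactivates leukotriene B4, read 7.90 in EBC1 and 8.61 in EBC1-R. It was 1.64-fold higher in EBC1-R, the third largest difference among the members, and 4.99% of all genes differed by at least as much. The prostaglandin genes as a group therefore had no common direction: 3 of 6 were higher, 3 were lower, and their median difference was -0.01. PTGR1 was the 1 among them above the level filter.

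**Figure D2:**
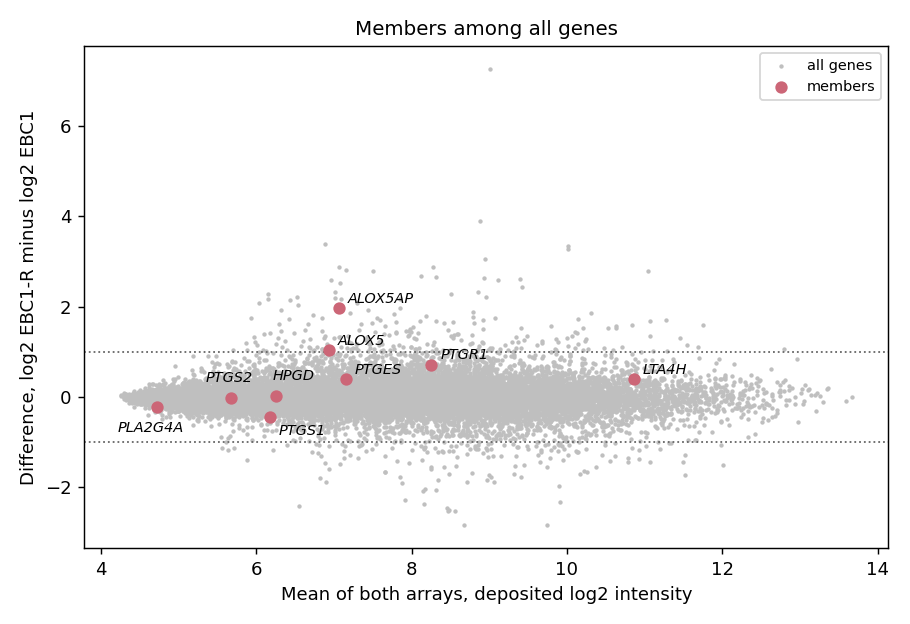
Difference (y axis, log2 EBC1-R minus log2 EBC1) against the mean deposited log2 intensity of both arrays (x axis) for all 18377 genes in grey and the 9 measured members in red, with dotted lines at 2-fold. ALOX5AP lies above most of the grey points at 1.96, ALOX5 lies just past the dotted line at 1.04, and the other members lie within the band.

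Further genes of the eicosanoid pathways were taken by role, 85 of them, of which 75 were measured. Of these, 44 were higher and 31 lower in EBC1-R, with a median difference of 0.04, against 43.3% of all genes higher and the overall median of -0.03. At least 2-fold higher were 3 (AKR1C2, AKR1C3 and CYP4F11), against 1.26% of all genes. None was at least 2-fold lower, against 0.887% of all genes.

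Genes that release or re-esterify arachidonic acid numbered 19, with 8 higher, 11 lower and a median of -0.06. Over the 7 above the level filter the median was 0.44. Of those 7, PLA2G4C and PLAAT3 reached the filter through EBC1-R alone, so nothing is read from the 0.44. PLA2G4C, a paralog of PLA2G4A, read 6.78 in EBC1 and 7.48 in EBC1-R, 1.63-fold higher. PLAAT3, a phospholipase and acyltransferase, was 1.52-fold higher at 7.14 and 7.74. PLA2G4F, a further cytosolic paralog, was 1.49-fold lower at 6.63 and 6.05, so the paralogs did not share a direction.

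Among 9 terminal prostanoid synthases the median difference was 0.00. AKR1C3, an aldo-keto reductase that makes a prostaglandin F from prostaglandin D2, read 7.98 in EBC1 and 9.62 in EBC1-R, 3.12-fold higher. PTGDS, a prostaglandin D synthase, differed by -0.17, and CBR1, a carbonyl reductase that acts on prostaglandin E2, by 0.13. Genes of prostanoid transport and inactivation had a median of 0.34 over 8, with 7 higher, against 43.3% of all genes. AKR1C2, a reductase better known for steroids, read 8.34 in EBC1 and 11.68 in EBC1-R, 10.2-fold higher. AKR1C1 was 1.68-fold higher at 6.29 and 7.05. The AKR1C genes are closely similar in sequence and hybridisation across them was not tested, so their values are uncertain as separate measurements. ABCC4, an efflux pump that exports prostaglandins among other substrates, read 6.61 in EBC1 and 7.52 in EBC1-R, 1.88-fold higher.

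Receptors differed little. Of 9 prostanoid receptors 3 were higher and 6 lower, with a median of -0.04. PTGER2, a receptor for prostaglandin E2 that raises cyclic AMP, read 5.75 in EBC1 and 6.19 in EBC1-R, 1.36-fold higher. PTGER1, a prostaglandin E2 receptor that raises calcium, was 1.22-fold lower at 7.47 and 7.18, and PTGIR, the prostacyclin receptor, differed by -0.11. Of 6 leukotriene and related receptors 4 were measured, all under the level filter, and their differences lay between -0.18 (OXER1) and 0.06 (GPR17), with CYSLTR1, a cysteinyl leukotriene receptor, at 0.04. LTB4R and LTB4R2, the leukotriene B4 receptors, were not measured, as no probe set is annotated to either alone.

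Genes of leukotriene export and inactivation had a median of 0.28 over 9, with 7 higher, against 43.3% of all genes. Over the 2 above the level filter the median was 0.72. CYP4F11, a fatty acid hydroxylase, read 8.30 in EBC1 and 9.42 in EBC1-R, 2.17-fold higher. CYP4F3, which hydroxylates leukotriene B4, was 1.49-fold higher at 6.54 and 7.12, and CYP4F2 was 1.27-fold higher from 4.77 to 5.11. The CYP4F genes are close paralogs as well, and cross-hybridisation among them was not tested.

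The lipoxygenases other than ALOX5 had a median of -0.07 over 5, with 2 higher and 3 lower. ALOX15, a 15-lipoxygenase, read 6.17 in EBC1 and 5.90 in EBC1-R, ALOX12B differed by 0.22 and ALOX15B by -0.14. Only 1 of the 5, ALOXE3, reached the level filter, so a small true change in the others could go unseen. FLAP belongs to the MAPEG family of membrane proteins together with LTC4S and PTGES. The other 3 measured members of that family were all higher, against 43.3% of all genes. MGST2, which can also make leukotriene C4, was higher by 0.44, MGST1 by 0.22 and MGST3 by 0.18. In that order 13.1%, 36.1% and 44.9% of all genes differed by at least as much. The arachidonate epoxygenase, hydroxylase and epoxide hydrolase list had a median of 0.05 over 9, and of 0.52 over the 2 above the level filter. In it EPHX1, the microsomal epoxide hydrolase, read 8.81 in EBC1 and 9.81 in EBC1-R and ended just short of the 2-fold count. EPHX3 was 1.53-fold lower at 6.44 and 5.83, and CYP2U1 was 1.48-fold higher at 6.19 and 6.75.

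**Figure D3:**
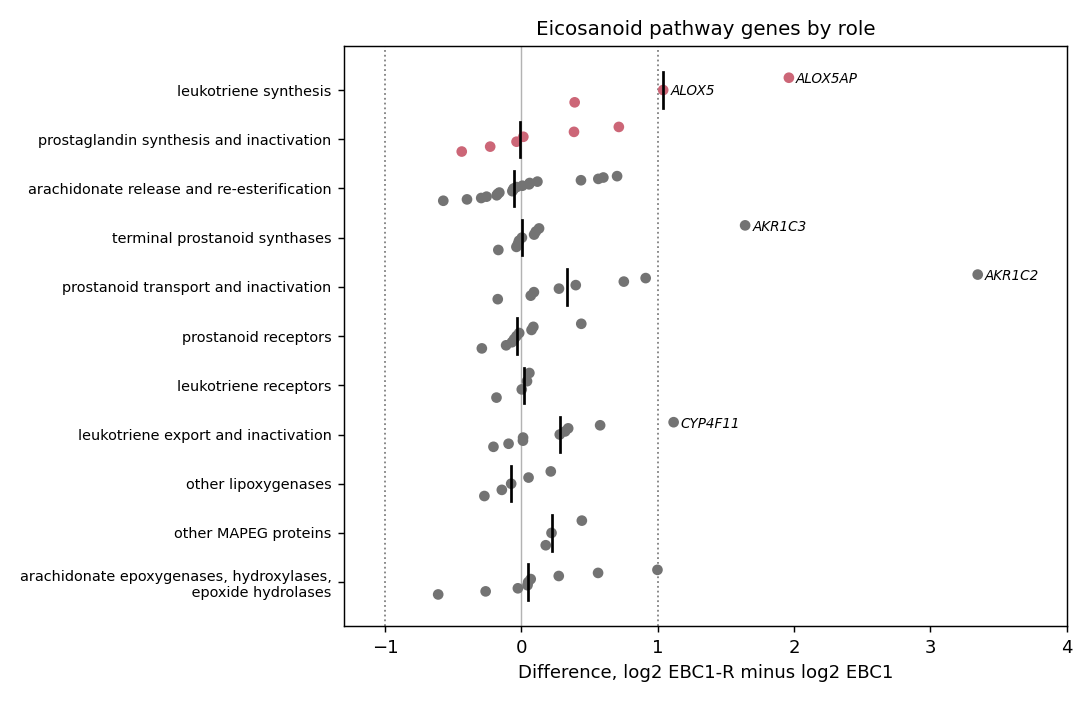
Difference (x axis, log2 EBC1-R minus log2 EBC1) of each measured pathway gene by role (rows), members in red and other genes in grey, with a black bar at each row's median and dotted lines at 2-fold. The 5 genes named in the plot are the ones at least 2-fold higher, and no gene lies past the left dotted line.

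Markers of cell types were read beside these values because FLAP and 5-lipoxygenase are best known from leukocytes. Of 15 leukocyte markers 13 were measured and none differed 2-fold, with a median difference of 0.00 and a range from -0.22 to 0.40. Summed on the linear scale they came to 2779 in EBC1 and 3449 in EBC1-R, most of it from CD68, a lysosomal protein, at 11.04 and 11.45. It was the only one of the 13 above the level filter. PTPRC, the pan-leukocyte CD45, read 4.56 in EBC1 and 4.65 in EBC1-R, TYROBP 7.04 and 7.21, and SPI1 6.82 and 6.78. The 3 measured mast cell markers of 6 summed to 102 and 104, the 6 platelet markers to 430 and 421, the 8 fibroblast markers to 571 and 561 and the 6 endothelial markers to 341 and 323, with none 2-fold different. Intensities have no true zero, so no marker is at 0. The 7 measured epithelial markers were all above the level filter on both arrays, from 9.09 up to 12.83 in EBC1, and came to 30900 in EBC1 and 22120 in EBC1-R when summed. The keratins KRT19 (12.77 and 11.88), KRT8 (12.83 and 12.01) and KRT18 (12.26 and 11.47) were lower in EBC1-R by less than 2-fold. EPCAM read 11.33 and 11.25. Of these 7 markers 5 were lower and 2 higher in EBC1-R. KRT7 differed by -0.161, CDH1 by 0.097 and CLDN4 by 0.089, so the lower sum was not shared by all of them. Of 6 measured squamous markers KRT5 (6.17 and 6.11), DSG3 (5.19 and 5.13), KRT14, SOX2 and PKP1 were under the level filter, and SPRR1B was 2.13-fold lower at 9.36 and 8.27. The markers in this paragraph other than SPRR1B were named after their values were seen.

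The nearest measured genes on each side of the members, in RefSeq order, were taken for position alone. Beside ALOX5AP on chromosome 13 were USPL1, at 0.49, and MEDAG, at -0.17. Beside ALOX5 on chromosome 10 were OR13A1, at -0.03, and MARCHF8, at 0.54. LTA4H on chromosome 12 lies between HAL, at -0.36, and ELK3, at -0.98. PTGS2 and PLA2G4A are neighbours on chromosome 1 and were both low, with PDC, at 0.18, and BRINP3, at -0.15, on their outer sides. On chromosome 9, PTGS1 lies between MRRF, at 0.21, and OR1J2, at -0.02, and PTGES between PRRX2, at -0.24, and TOR1B, at 0.33. PTGR1, also on chromosome 9, lies between ZNF483, at 0.80 and under the level filter, and a pseudogene at -0.17. The next genes out were ECPAS, at 0.16, and SHOC1, at 1.03 and under the level filter. ZNF483 and SHOC1 thus differed by more than PTGR1, at 0.71. HPGD on chromosome 4 lies between CEP44, at -0.05, and GLRA3, at 0.32.

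Other normalizations left the order of the leading members in place. The ALOX5AP difference lay between 1.74 and 1.99, ALOX5 between 0.92 and 1.08, and PTGR1 between 0.68 and 0.75 over the 4 alternatives that could change them. The choice of probe set could not, since each measured member has 1. LTA4H (0.39 to 0.42) and PTGES (0.35 to 0.42) stayed higher and PTGS1 (-0.44 to -0.36) and PLA2G4A (-0.23 to -0.14) lower in those 4, reported values included in the ranges. PTGS2 had no direction, with values from -0.04 to 0.02.

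**Figure D4:**
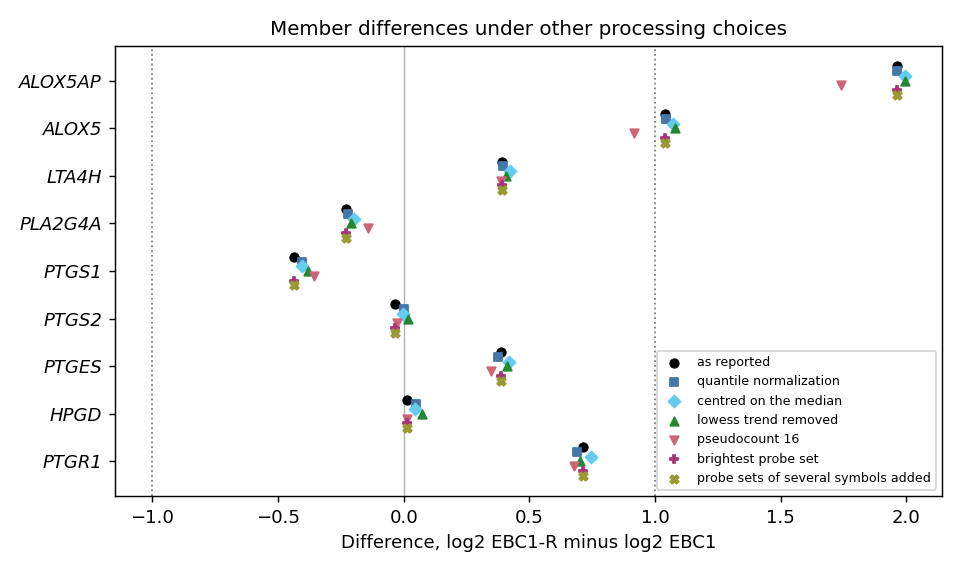
Difference (x axis, log2 EBC1-R minus log2 EBC1) of each measured member as reported (black circles) and under 6 other processing choices (coloured symbols), 2 of which concern probe sets and cannot change these genes, with dotted lines at 2-fold. ALOX5AP stays between 1.74 and 1.99, ALOX5 moves from 1.04 to 0.92 with the pseudocount, and PTGS2 stays around 0.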

How the data were processed

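Total RNA (100 ng) from frozen cells was made into biotin-labelled cDNA with a whole-transcript kit, per the labels' protocols. The extraction protocol names another array type, whose description does not match the deposited table of 28869 probe sets. Each deposited column holds 1 value per probe set, read as log2 intensity from its range (4.21 to 14.1 and 4.22 to 14.2). How the authors corrected background, summarized and normalized the arrays was not given in the sources used here. Column medians were 6.73 and 6.71, so a change shared by most genes would not be seen.

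Probe sets with 1 symbol (19310, of which 19279 matched RefSeq by gene identifier; 1752 had several symbols and 7807 none) were averaged to 18377 genes. The members and lists were chosen with earlier results of these data known. Named were all members and, in each further list, the genes at least 2-fold different, filled up to 3 by size of difference. With 1 array per group no test was made, and the number of arrays limits the precision. Alternatives were quantile normalization, median centring, lowess (span 0.2), a pseudocount of 16, the brightest probe set, probe sets of several symbols, thresholds of 1.5-fold and 3-fold, and the level filter. The counting was tested on simulated data. Python 3.11.15, numpy 2.4.6, pandas 2.3.3, statsmodels 0.14.6 and matplotlib 3.10.9 were used.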

Additional observations from a re-analysis of the deposited data

How the results depend on the processing

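Each measured member has 1 probe set, so 2 of the 6 alternatives, on the choice of probe set, could not change its value. Of 36 member differences under the other 4, 35 moved by no more than the 0.16 between probe sets of a gene and none of the 2-fold differences reversed. The exception was ALOX5AP with a pseudocount of 16, at 1.74 in place of 1.96. That pseudocount left 1 member at least 2-fold higher in place of 2, as did a 3-fold threshold, and a 1.5-fold threshold gave 3. No member was 2-fold lower under any of the 9 alternatives run. At 3-fold, 65 genes were higher and 36 lower; at 1.5-fold, 811 and 580; at 2-fold the counts were 231 and 163. The list medians that moved by more than 0.16 were 4, all taken over genes above the level filter. Arachidonate release gave 0.44 in place of -0.06, where PLA2G4C and PLAAT3 passed through EBC1-R alone. Prostaglandin synthesis and inactivation gave 0.71 in place of -0.01, from PTGR1 alone. Leukotriene export and inactivation gave 0.72 in place of 0.28, and the epoxygenase list 0.52 in place of 0.05, each over 2 genes. Outside arachidonate release the genes left passed on both arrays, and they were few. Low intensity limits PLA2G4A, PTGS2, PTGS1 and HPGD, for which a small true change could go unseen. No paired analysis was possible because each group has 1 array.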

Other observations

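Of 8 genes known to answer the same cytokine and NF-kB stimuli as PTGS2, put together after the values were seen, 6 were at least 2-fold higher in EBC1-R: CCL2 (5.75 to 8.57), IL6 (6.11 to 8.89), SOD2 (7.85 to 9.73), IL1A (7.29 to 9.08), NFKBIA (10.81 to 12.10) and CXCL8 (9.03 to 10.19). Among all genes 1.26% were at least 2-fold higher. IL1B was 1.81-fold higher, while TNF, low on both arrays, differed by 0.08. PTGS2 differed by -0.04. Since the choice of genes fixed this contrast, nothing is drawn from it.

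PTGR1 is also known as a target of the antioxidant factor NRF2. Of 7 measured NRF2 targets, likewise listed after the values were seen, 6 were higher and 2 at least 2-fold: HMOX1 (8.37 to 11.65) and GCLM (8.33 to 9.52). Among all genes 43.3% were higher and 1.26% at least 2-fold higher, and nothing is drawn from these counts. GCLC was 1.67-fold higher, NQO1 differed by 0.08 and SLC7A11 by -0.25. The part of NRF2 in the PTGR1 value was not tested. A list of 6 genes drawn up at the same point as phospholipase A2 modulators was above the level filter on both arrays. Their differences ran from -0.43 (ANXA2) to 0.41 (TSC22D3), with 2 higher and 4 lower. The list includes COTL1 and MAPKAPK2, and whether each gene's product acts on phospholipase A2 was not tested.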
